A study of Mus musculus with 10 samples.

Results

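The 56 genes described here are interferon-stimulated genes, that is, genes known to be transcribed more when a cell senses type I or type II interferon. They were taken from a list of names of interferon-induced genes, with no threshold on any value in these data, although the list was drawn up with earlier results of these data known. All 56 were among the 55809 gene rows of the count files, and 55 passed the filter used for testing (a mean of at least 10 counts over the 10 libraries), out of 16363 genes that did. Only Ifitm1 fell below it.

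The libraries are bulk RNA-seq of regulatory T (Treg) cells from spleen and lymph nodes of Foxp3-AID mice. In these mice the Foxp3 protein carries an auxin-inducible degron (AID), a tag that lets a plant E3 ligase mark it for destruction, and the same allele carries a ZsGreen reporter and a Cre recombinase. In the 6 R26-TIR1(F74G) libraries (replicates 5 to 10) the ROSA26 allele supplied that ligase, TIR1(F74G), with an mCherry reporter behind a STOP cassette that the Foxp3-driven Cre removes. The 4 R26-WT libraries (replicates 1 to 4) came from mice without TIR1. Both groups received the auxin analog 5-ph-IAA for 14 days, so drug exposure, the tagged Foxp3 allele and the Cre are shared, and Foxp3 protein was targeted for degradation in R26-TIR1(F74G) only. The labels give neither age nor sex. The study describes such a treatment in both newborn and adult hemizygous males, and the labels do not say to which of them these libraries belong. In a hemizygous male every Treg cell carries the tagged Foxp3, so effects within the cells and effects of a changed host cannot be told apart. The allele was made in cells of mixed 129 and C57BL/6 origin and then backcrossed, and, where the general sorting scheme of the study was used, cells with TIR1 were also gated on mCherry, so the ligase, the reporter and the gate cannot be told apart from the loss of Foxp3.

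Type I interferons signal through the receptor chains Ifnar1 and Ifnar2 and the kinases Jak1 and Tyk2 to a complex that holds Stat2 and Irf9 and binds the interferon-stimulated response element (ISRE). Interferon gamma signals through Ifngr1 and Ifngr2 and acts on promoters with the gamma-activated sequence (GAS). The induced proteins block viruses at many steps, by sensing or degrading RNA, by holding virions at membranes or by attacking the vacuoles of intracellular microbes. T cells at rest transcribe many of these genes at a tonic level, and interferon is known to act on Treg cells directly.

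The promoters were searched for the letters of these elements, and a few are printed so that the ISRE core can be seen. The window searched ran from 250 bases before to 50 bases after the start of the Ensembl canonical transcript (GENCODE M39, build GRCm39, the build of the files). The ISRE core was searched as GAAANNGAAA on both strands. It was present in 29 of the 55 tested members (52.7%) and in 587 of 15515 promoters of all tested genes (3.78%). In the 150 bases before the start the shares were 21 of 55 (38.2%) and 1.84%. In the stretches below, each written 5′ to 3′ on the strand of its gene, capitals mark the core, which appears in this orientation or as its reverse complement, and lower case marks the flanks. The first set holds members with distinct roles: the ubiquitin-like modifier, its protease, a subunit of the ISRE-binding complex itself, an RNA-binding protein, an antiviral enzyme, a nucleic acid sensor and a tether of virions.
Isg15, chr4:156285318-156285367, minus strand: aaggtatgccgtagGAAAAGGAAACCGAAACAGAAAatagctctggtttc
Usp18, chr6:121222768-121222829, plus strand: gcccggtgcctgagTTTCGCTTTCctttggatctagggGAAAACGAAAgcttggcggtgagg
Stat2, chr10:128106131-128106168, plus strand: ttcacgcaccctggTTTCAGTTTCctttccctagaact
Ifit1, chr19:34618171-34618227, plus strand: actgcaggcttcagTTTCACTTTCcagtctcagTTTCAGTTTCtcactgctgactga
Rsad2, chr12:26506548-26506585, minus strand: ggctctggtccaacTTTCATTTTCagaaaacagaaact
Zbp1, chr2:173060786-173060829, minus strand: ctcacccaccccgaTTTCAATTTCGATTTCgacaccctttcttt
Bst2, chr8:71990217-71990260, minus strand: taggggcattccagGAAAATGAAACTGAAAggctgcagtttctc
The 3 cores of Isg15 lie within 22 bases, each overlapping the next, from 50 to 29 bases before the start. A second set comes from the p200 cluster of chromosome 1, whose members code for DNA-binding proteins, and is shown because the member with the lowest adjusted p lies there. The cores of Ifi206 and Ifi213 are written with the same letters.
Ifi204, chr1:173594623-173594660, minus strand: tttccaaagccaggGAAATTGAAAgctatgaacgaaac
Ifi206, chr1:173318901-173318938, minus strand: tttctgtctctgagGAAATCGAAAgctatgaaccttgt
Ifi213, chr1:173426888-173426925, minus strand: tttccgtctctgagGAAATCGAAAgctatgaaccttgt
The GAS core, TTCNNNGAA, was present in 11 of 55 members (20%), Irf1 among them, and in 7.63% of all promoters. In the 150 bases before the start it was present in 14.5% of members and 3.69% of all. A match describes the letters in these windows only.

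Treg cells of both groups transcribed the members at high levels before any comparison. Per kilobase of total exon length, the median level of the 55 tested members was 1697 normalized counts, against 176 for all tested genes, and 48 members lay above that median. Normalized counts are read-pair counts divided by the DESeq2 size factor of the library. Ifi27l2a, which codes for a small interferon-induced membrane protein, stood highest, at 31593 ± 5726 normalized counts per kilobase over the R26-WT libraries (SD, n = 4) and 28804 ± 8356 over those with TIR1 (SD, n = 6). The immunity-related GTPases Igtp (17299.7 over all 10 libraries) and Ifi47 (16248) followed and did not differ from each other beyond their spread. At the other end stood Ifi44 (65.1), Ifi204 (17.2) and Ifitm1 (5.68). Together the 56 genes took 0.889% to 1.2% of the counted read pairs of a library.

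The libraries held 24158699 (R26-TIR1(F74G) replicate 8) to 54795718 (R26-WT replicate 1) counted read pairs. Markers of the labelled cell type were present throughout. The summed normalized counts of Cd3e, Cd4, Foxp3, Il2ra, Ctla4 and Ikzf2 ranged from 114789 to 134555 in R26-WT and from 112472 to 130040 in R26-TIR1(F74G). The myeloid list summed to between 23.6 and 39.8 in R26-WT and between 10.8 and 44.4 in R26-TIR1(F74G) over 8 genes, with Cd14 and S100a9 at 0 everywhere. The 5 plasmacytoid dendritic cell markers summed to between 901 and 1617, nearly all of it from Ccr9 (626 to 1384) and Tcf4 (233 to 336), which T cells can also express. Of the others, Siglech reached at most 4.07, Spib at most 7.19, and Cox6a2 was at 0. The proliferation list, by contrast, moved with the groups. It summed to 4934 to 6288 in R26-WT and 7864 to 12037 in R26-TIR1(F74G), with 6 of its 8 genes called higher, that is, at a DESeq2 adjusted p under 0.05 (1.4% of all tested genes were). The stress and dissociation list summed to 32281 to 48899 in R26-WT and 25055 to 34146 in R26-TIR1(F74G), with 2 of its 6 genes, Fos and Jun, called lower (0.336% of all tested genes were). It did not move as one, since 3 of its log2 fold changes lay above 0 (up to 0.75) and 3 below (down to −0.88). The part of either list in the results below was not tested.

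The first question was whether the members changed between R26-TIR1(F74G) and R26-WT. In DESeq2 (Wald test, Benjamini-Hochberg adjusted over the 16363 genes), 1 of the 55 tested members passed an adjusted p under 0.05. This was Ifi204, higher in R26-TIR1(F74G). The share, 1.82%, was near that of all tested genes (1.74%, of which 1.4% higher and 0.336% lower). At an unadjusted p under 0.05 there were 3 members (5.45%), against 6.86% of all genes, namely Ifi204, Ly6a and Samhd1. The edgeR quasi-likelihood test called none of the members at an adjusted p under 0.05 (0.373% of all genes), with the same 3 below an unadjusted p of 0.05. The median log2 fold change of the members was 0.03, and that of all genes 0.00063, with 34 members above 0 and 21 below.

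The intervals say how large a change these libraries leave room for. The 95% interval of the fold change lay within a log2 value of 1 either way for 52 of 55 members (94.5%, against 80.1% of all tested genes). It lay within 0.5 either way for 30 members (54.5%, against 44.4%). The 3 with a wider interval were Ifi204, Ifitm2 and Oas3. In bulk libraries fewer cells with a transcript and less of it per cell cannot be told apart, here and in every comparison that follows.

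**Figure D1:**
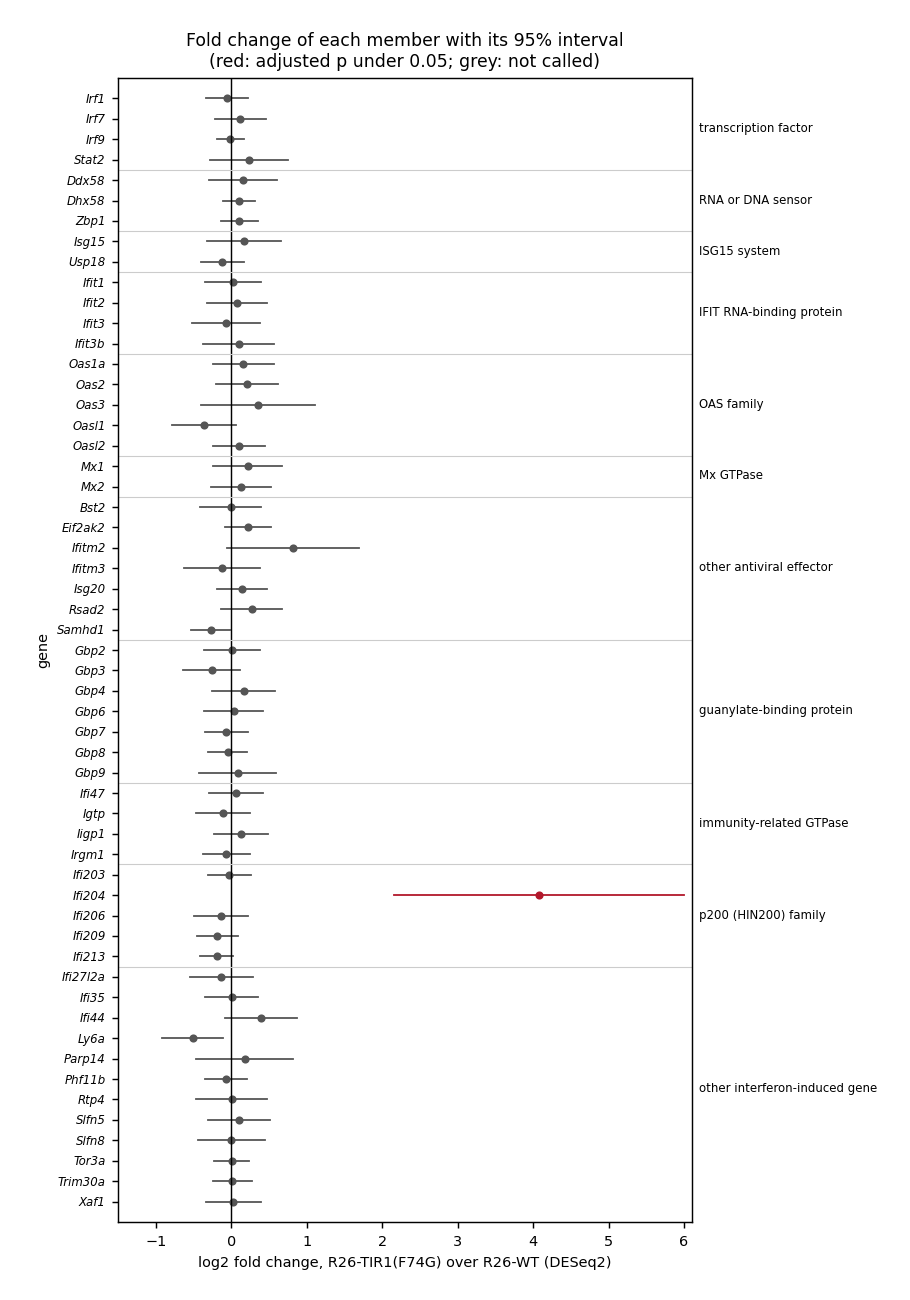
Log2 fold change (DESeq2) of the 55 tested members, R26-TIR1(F74G) over R26-WT, as points with 95% intervals as bars, grouped by role, with called members in red. Ifi204 at 4.08 is the one red point, and 52 of the 55 intervals stay between −1 and 1.

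Among the transcription factors of the pathway, fold changes ran from −0.06 to 0.23. Stat2 had 5456, 7608, 2859.9 and 3772 normalized counts in the R26-WT libraries, replicates 1 to 4 in order, and 4506 (lowest), 5294 (median) and 8547 (highest) in R26-TIR1(F74G). The groups overlapped over most of their range, and the log2 fold change was 0.23 (SE 0.26), with 0.04 without R26-WT replicate 3 and 0.52 without replicate 2. Irf9, the DNA-binding partner of Stat2, was the steadiest of all members between libraries, with 13616 to 15991 normalized counts in R26-WT and 13349 to 16241 in R26-TIR1(F74G). Its log2 fold change was −0.01, with a 95% interval from −0.20 to 0.17. Irf7, which amplifies the type I response, had 7835, 8514, 9512 and 11500.5 in R26-WT and 8706, 9275 and 14029.5 as lowest, median and highest in R26-TIR1(F74G), the highest being replicate 9 (log2 fold change 0.12, SE 0.17). Irf1, the early factor downstream of interferon gamma, ranged from 23703 to 32463 in R26-WT and from 20272 to 30702 in R26-TIR1(F74G) (−0.06, SE 0.14).

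The sensors lay close together too. Ddx58, which codes for the RNA helicase RIG-I, had a log2 fold change of 0.15 (SE 0.23), its regulator Dhx58 of 0.10 (SE 0.11) and Zbp1, a sensor of left-handed nucleic acid, of 0.11 (SE 0.13). For Dhx58 the R26-WT libraries held 2162 to 2396 normalized counts and the R26-TIR1(F74G) libraries 2048 to 2794, the narrower range inside the wider. Of the ISG15 system, Isg15 itself had 1623, 1829, 2431 and 2529 in R26-WT and 1529.5, 2225 and 3568 as lowest, median and highest in R26-TIR1(F74G) (log2 fold change 0.16, SE 0.25). Usp18, the protease that removes ISG15 and dampens receptor signalling, had −0.12 (SE 0.15).

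The IFIT proteins bind viral RNA that lacks the marks of the host. Ifit1 had 5410.5, 5710.4, 4823 and 5293 normalized counts in R26-WT and 3484, 5458 and 6810.4 as lowest, median and highest in R26-TIR1(F74G). The spread was wider with TIR1 and the centre nearly the same (log2 fold change 0.02, 95% interval −0.35 to 0.39). Ifit3 gave −0.08 (SE 0.23). Ifit3 and Ifit3b share 46.7% or more of their 50-base stretches with each other, so their separate counts are uncertain. In the OAS family, whose enzymes make the messenger that activates RNase L, 4 of 5 fold changes were above 0, with a range from −0.37 (Oasl1, unadjusted p 0.092) to 0.35 (Oas3, SE 0.39). The value of Oas3 rested on single libraries, since it was 0.03 without R26-TIR1(F74G) replicate 7 and 0.79 without R26-WT replicate 2. Oas1a gave 0.15 (SE 0.21), with 56.8% of its 50-base stretches also in other genes. The Mx GTPases, which trap incoming viral particles, both lay above 0. Mx1 had 481, 463, 256 and 261 in R26-WT and 265, 446 and 482 as lowest, median and highest in R26-TIR1(F74G), where replicate 8 stood below the rest of its group (0.22, SE 0.24).

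Of the other antiviral effectors, Samhd1 and Ifitm2 came closest to a difference. Samhd1, which hydrolyses the nucleotides that retroviruses need, had 43161, 44831, 46578 and 53883 normalized counts in R26-WT and 33266, 38512 and 47806 as lowest, median and highest in R26-TIR1(F74G). Of the 6 libraries with TIR1, 5 lay below every R26-WT library, and replicate 9 lay among them (log2 fold change −0.28, SE 0.13, DESeq2 adjusted p 0.627). Ifitm2, a membrane protein that hinders viral entry, had 94.8, 64.0, 111 and 67.7 in R26-WT and 72.1, 106 and 409.9 in R26-TIR1(F74G). Its log2 fold change was 0.81 with an SE of 0.45 (DESeq2 adjusted p 0.848), and it was 0.19 without replicate 9, the library with the value of 409.9. Another annotated gene covers 40.9% of the exon bases of Ifitm2, and read pairs in the shared bases were not counted. Ifitm1 had 0 to 4.78 normalized counts in R26-WT and 0 to 38.9 in R26-TIR1(F74G), again with replicate 9 on top, and was not tested. The remaining effectors were Eif2ak2, the kinase PKR (0.22, SE 0.16), Rsad2, which codes for viperin (0.27, SE 0.21), Isg20, an RNA exonuclease (0.14, SE 0.17), Ifitm3 (−0.12, SE 0.26) and Bst2, which codes for tetherin (−0.01, SE 0.21).

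GTPases induced mainly by interferon gamma included several of the most abundant members, and none was called. The 7 guanylate-binding proteins had log2 fold changes from −0.26 (Gbp3, SE 0.19) to 0.16 (Gbp4, SE 0.21), and Gbp2 had 0.01 (SE 0.19). The 4 immunity-related GTPases, which coat vacuoles that hold microbes, ran from −0.11 (Igtp, SE 0.18) to 0.13 (Iigp1, SE 0.18). All 4 of their 95% intervals lay within 0.5 either way. Irgm1 had 15571, 15209, 12792 and 17225 normalized counts in R26-WT and 11577, 14389 and 18445 as lowest, median and highest in R26-TIR1(F74G), with the R26-WT values inside that range (−0.07, SE 0.16). Gbp6 shares 87.9% of its 50-base stretches with other annotated genes, nearly all with Gm43302, which also covers 29% of its exon bases, so its count is uncertain.

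The p200 cluster on chromosome 1 held the one called member beside 4 neighbours that were not called. Ifi204 (chr1:173574859-173594509, minus strand) had 2, 7, 12 and 6 raw counts in the R26-WT libraries and 12, 67, 33, 19, 372 and 47 in R26-TIR1(F74G) replicates 5 to 10. As normalized counts this was 1.59, 6.89, 9.77 and 5.07 in R26-WT, with 13.4, 37.2 and 402 as lowest, median and highest in R26-TIR1(F74G). Every library with TIR1 lay above every R26-WT library, which held for 1.57% of all tested genes and for no other member. Groups without overlap in either direction made up 2.37% of all tested genes. The log2 fold change was 4.08 (SE 0.98, lower end of the 95% interval 2.16), and the DESeq2 adjusted p was 0.00345. The edgeR adjusted p was 0.179.

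Replicate 9 set the size of that change but not its direction. Without it the log2 fold change was 2.70 and the DESeq2 adjusted p 0.000283. Without replicate 6 DESeq2 gave the gene no p. Ifi204 is also known from macrophages. The myeloid list summed to between 10.8 and 44.4 normalized counts per library, with 10.8 in replicate 9, and its part in the Ifi204 values was not tested. Of its 50-base stretches 28.6% occur in other genes, 22% in Ifi211, a neighbour with 1.97 to 5.57 normalized counts in R26-WT and 5.56 to 37.9 in R26-TIR1(F74G), highest in replicate 9 as well. Ifi211 was below the filter and was not tested. The abundant neighbours were not called. Ifi203 had a log2 fold change of −0.03 (SE 0.14), Ifi209 of −0.19 (SE 0.14) and Ifi213 of −0.20 (SE 0.11), at 3193 normalized counts or more in every library for the last of these.

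Among the other induced genes Ly6a stood apart. Ly6a codes for Sca-1, a surface protein of activated and memory-like T cells that interferon raises. It had 11970.0, 12609, 17529.7 and 21885 normalized counts in R26-WT and 8273, 10943 and 14723 as lowest, median and highest in R26-TIR1(F74G). In 4 of the 6 libraries with TIR1 the value was below every R26-WT value, and the log2 fold change was −0.51 (SE 0.20, 95% interval −0.91 to −0.11), with −0.32 without R26-WT replicate 4, the library with the highest value. The DESeq2 adjusted p was 0.315. It fell to 0.00182 when 1 surrogate variable was added to the fit (4.54% of all genes then called) and to 0.0348 when the trend of counts with gene length was removed in each library (2.43% of all genes called), with log2 fold changes of −0.39 and −0.44. Ifi204 was called in both of these fits, and no other member was. The call of Ly6a thus depended on how variation shared by the libraries was treated. Ifi44 gave 0.39 (SE 0.24), and the schlafen Slfn5, the ubiquitin ligase Trim30a and the other genes of this group lay between −0.13 and 0.18.

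**Figure D2:**
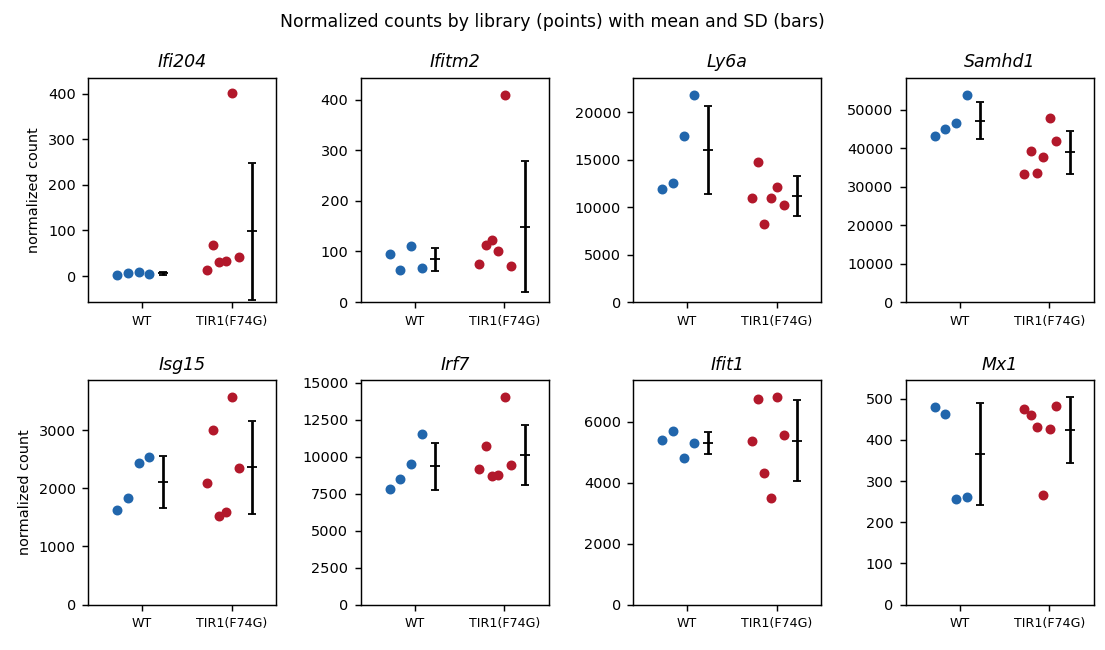
Normalized counts of 8 members, one point per library (blue, 4 R26-WT; red, 6 R26-TIR1(F74G)), with mean and SD as bars on separate linear axes; the SD bar of Ifi204 runs below 0 because 1 value of 402 sets it. Ifi204 is higher in all 6 red points, the Ly6a and Samhd1 points lie mostly lower, and the other groups overlap.

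The pathway above the members was described from a separate list of 35 genes. Of the 29 tested, none was called by DESeq2 or edgeR (against 1.74% and 0.373% of all tested genes). In each test 2 had an unadjusted p under 0.05 (6.90%, against 6.86% of all tested genes in DESeq2), and 17 fold changes were above 0 and 12 below. With 1 surrogate variable 3 were called, 2 of them receptor genes (4.54% of all tested genes called), and with the length trend removed 1 was, a receptor gene (2.43%). The receptor chains lay between −0.35 and 0.05. Ifnar1 gave −0.23 (SE 0.16), Ifnar2 −0.05 (SE 0.08), Ifngr1 −0.19 (SE 0.12) and Ifngr2 0.05 (SE 0.11). The lowest was Il10rb, a chain that interferon lambda and IL-10 receptors share, with −0.35 (SE 0.11, DESeq2 adjusted p 0.0801). Of the ligands, Ifng had 8.22 to 36.8 normalized counts per library, and Ifnb1, Ifna4 and Ifne had none.

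A second list of 43 further interferon-induced genes gave 2 DESeq2 calls among 40 tested (5%, against 1.74% of all tested genes), one in each direction. With 1 surrogate variable 5 were called (12.5%, against 4.54%), and with the length trend removed 3 of 40 were (against 2.43%). The p200 gene Ifi214 was lower without overlap of the groups and was not called (log2 fold change −0.41, SE 0.16, DESeq2 adjusted p 0.303). Groups without overlap in either direction made up 2 of the 40 genes (5%) and 2.37% of all tested genes. Both called genes were near relatives of members. Gbp11 (chr5:105470908-105494338), which lies in the same cluster as the members Gbp4, Gbp6, Gbp8 and Gbp9, had 537, 647, 359.7 and 415 normalized counts in R26-WT and 1123, 1260 and 1907 as lowest, median and highest in R26-TIR1(F74G). All 6 libraries with TIR1 lay above all R26-WT libraries (log2 fold change 1.54, SE 0.21, DESeq2 adjusted p 3.65e-10, edgeR adjusted p 0.0109). The member Gbp8, whose 50-base stretches are 13.9% shared with Gbp11, had −0.05 (SE 0.13), and the members Gbp4, Gbp6 and Gbp9 had 0.16, 0.03 and 0.08. Ly6c1 (chr15:74915867-74920679), of the same gene family as Ly6a, fell by 0.75 on the log2 scale (SE 0.22, DESeq2 adjusted p 0.0399, edgeR adjusted p 0.214). It had 10404, 9912, 15371 and 17855 normalized counts in R26-WT and 5664 to 11315 in R26-TIR1(F74G). Differences between members and these relatives were not tested.

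The second question was how the members varied together from one library to the next. For this, log2(normalized count + 1) was centred within each group, and Pearson's r was taken for each pair of members over the 10 libraries. These correlations are descriptions without a test, and all points of a pair share libraries, depth and base composition. The median r over 1485 pairs was 0.42, against −0.00085 over all pairs of tested genes. It exceeded 0.7 in 24.7% of member pairs and in 11.8% of all pairs. The first principal component of the members held 52.9% of their centred variance, and that of all tested genes 37.8% of theirs. The within-group SD of the log2 values was about as large for members (median 0.30) as for all genes (0.30). Members lay at higher levels, and the SDs were not compared at matched level.

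Libraries differed in how often they held the highest or the lowest value, although the median r stayed between 0.33 and 0.45 with any one of them left out. In R26-TIR1(F74G), replicate 9 held the highest value of its group for 26 of the 55 members (47.3%), against 21.6% of all tested genes. Replicate 8 held the lowest value for 20 members (36.4%, against 9.06% of all genes) and the highest for none, and it was also the library with the fewest read pairs. In R26-WT, replicate 2 held the highest value for 25 members (45.5%, against 34.1%), replicate 4 for 23 (41.8%, against 17.8%), and replicate 3 the lowest for 31 (56.4%, against 30.7%). The mean log2 level of the members relative to their average over all libraries was 0.30 in replicate 9, −0.25 in replicate 8 and −0.24 in replicate 3. In R26-WT the highest was 0.089, in replicate 2, so that no library of that group stood as high as replicate 9.

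**Figure D3:**
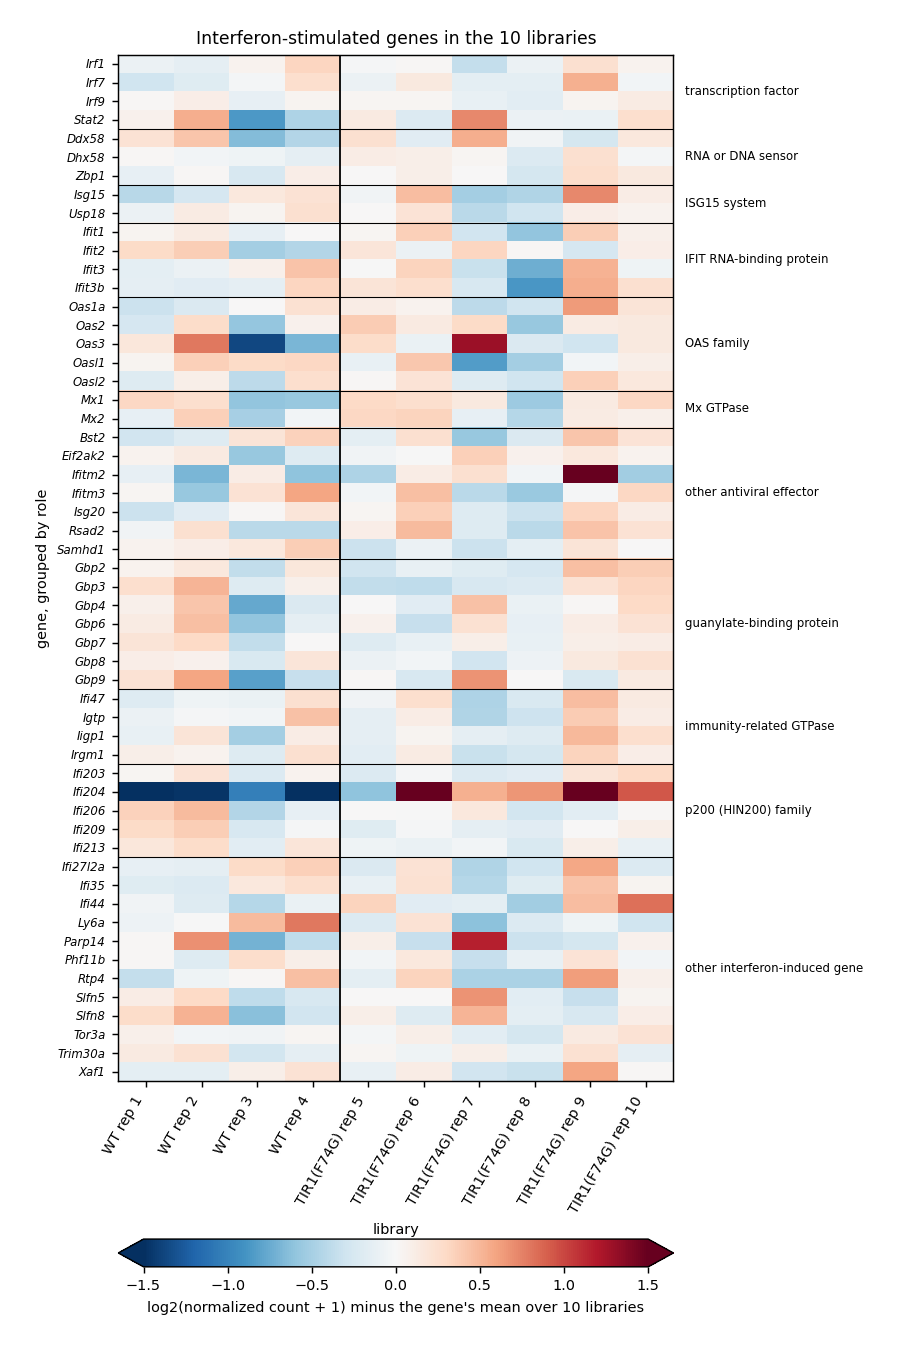
Log2(normalized count + 1) of the 55 tested members in the 10 libraries, minus the mean of the gene over all libraries, with genes in rows by role and libraries in columns (4 R26-WT left of the line, 6 R26-TIR1(F74G) right; red higher, blue lower, colours capped at 1.5 either way). Replicate 9 is red for most rows and replicate 8 blue, and no row but that of Ifi204 splits at the line.

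The members followed each other to different degrees. The highest median r with the other members belonged to Igtp (0.65), Ifi47 (0.64), Oasl2 (0.63), Irgm1 (0.63), Usp18 (0.60) and Xaf1 (0.58). Within families, the 4 immunity-related GTPases had a median pairwise r of 0.89 and the 7 guanylate-binding proteins of 0.74. Below the 0.42 of all member pairs lay the OAS family (0.41), the IFIT genes (0.37), the other antiviral effectors (0.30), the transcription factors (0.29), the other induced genes (0.17) and the sensors (0.05). Igtp and Ifi47 had an r of 0.98. The lowest median r belonged to Slfn5 (−0.13), Ifit2 (−0.06), Ddx58 (−0.02) and Parp14 (−0.0054). Members with an ISRE core in the promoter window had a median pairwise r of 0.46 and those without of 0.38.

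The members split along the main axis of variation of the whole transcriptome. With the first component of all tested genes, 12 members had an r over 0.7, among them Ddx58 (0.97), Gbp9 (0.95), Oas3 (0.94), Ifit2 (0.93), Stat2 (0.93), Parp14 (0.92) and Slfn5 (0.92). Another 16 had an r under −0.7, among them Phf11b (−0.94), Ifi35 (−0.93), Bst2 (−0.90), Ly6a (−0.89), Ifi27l2a (−0.87), Irf1 (−0.86) and Isg15 (−0.84). The other 27 lay between. The first set had a median exon length of 5940.0 bases and the second of 1872. Across the 55 members, Spearman's rho between gene length and the r with this component was 0.67, a value across genes, which are not independent replicates. It was 0.19 after the trend of counts with length had been removed in each library and the component taken anew from those counts. That step removes length itself, so the lower value is no test of a part of length. The libraries at one end of the component were R26-TIR1(F74G) replicate 7 (0.55) and R26-WT replicate 2 (0.44), and at the other R26-WT replicate 3 (−0.38) and R26-TIR1(F74G) replicate 9 (−0.36) (the centring sets the mean score of each group to 0). RNA integrity and cDNA amplification were not given per library, and their part was not tested.

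**Figure D4:**
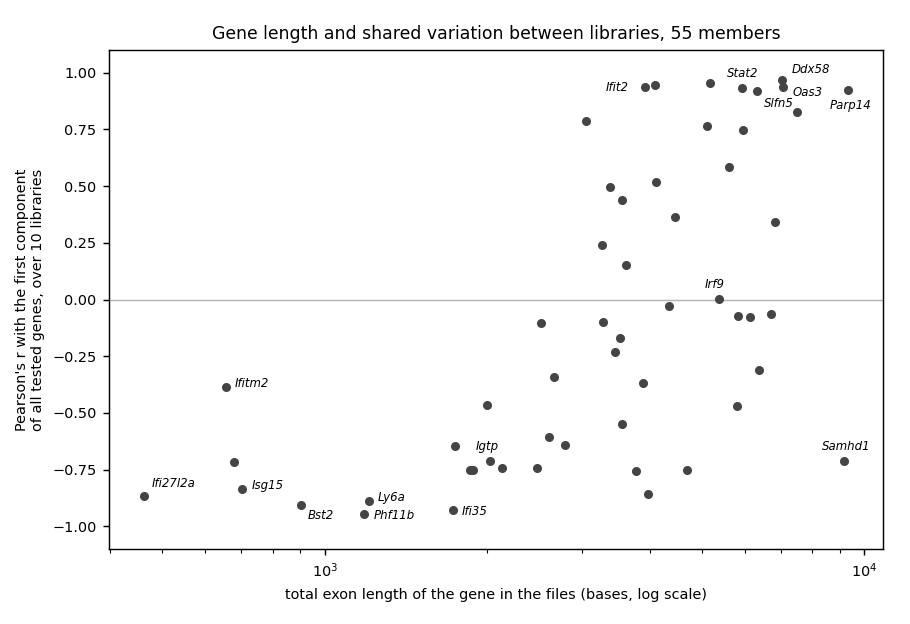
Total exon length of the 55 tested members in the files (log axis, bases) against Pearson's r of each with the first principal component of all tested genes over the 10 libraries. All members up to the 1205 bases of Ly6a lie below 0, and the shortest with an r over 0.7 is Ifi206, at 3054 bases. Some longer members lie under −0.7 as well, among them Samhd1 (9150 bases, −0.71) and Xaf1 (4689 bases, −0.75).

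Neighbouring genes fell on both sides of this axis. In the Ifit cluster of chromosome 19, Ifit1 and Ifit3 had an r of 0.85, whereas Ifit2 and Ifit3 had −0.55. Ifit2 has 3927 and Ifit3 1745 exon bases in the files. With the first component of all genes taken out, the r of Ifit2 with Ifit3 was 0.19 and with Ifit1 0.59. In the Oas cluster, Oas1a and Oas3 went from −0.57 to 0.60 in the same way, and the partners Stat2 and Irf9 from 0.32 to 0.87. Over all pairs the median r rose from 0.42 to 0.64 (0.00071 over all pairs of tested genes), the share of pairs below 0 fell from 26.5% to 4.92%, and all 55 members then had a median r above 0, lowest for Ly6a (0.061). With the length trend removed instead, the median r was 0.43, 19.4% of pairs lay below 0, and 52 members had a median r above 0. The r of Ifit2 was then −0.17 with Ifit3 and 0.20 with Ifit1, that of Oas1a with Oas3 was −0.13, and that of Stat2 with Irf9 was −0.35. The sign of Ifit2 with Ifit3, Oas1a with Oas3 and Stat2 with Irf9 thus depended on which correction was made.

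**Figure D5:**
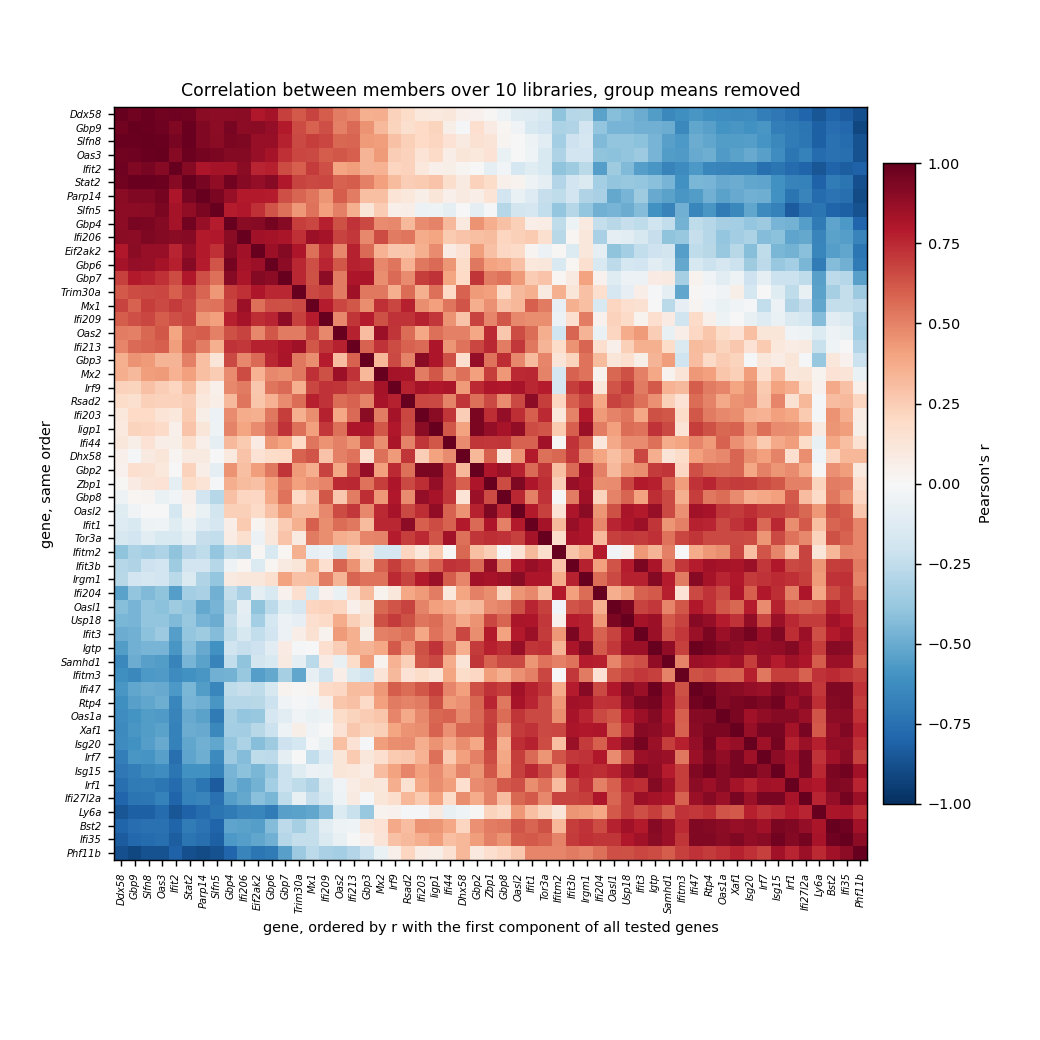
Pearson's r between each pair of the 55 tested members over the 10 libraries, group means removed, with genes in the same order on both axes, by their r with the first component of all tested genes (red positive, blue negative). A block led by Ddx58 at the upper left and one ending in Phf11b at the lower right are red within and blue between, and the members in the middle are positive with most others.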

How the data were processed

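The authors deposited a table of read-pair counts for each library, by gene name and without normalization. Per the file headers these were made with featureCounts 2.1.1 on GENCODE M30 (GRCm39), with primary alignments of both mates at mapping quality of at least 30 and no strand option, so antisense partners cannot be told apart and pairs in overlapping genes were left out. The study's methods name STAR for alignment and the submitters' processing notes Bowtie2, which was not resolved. Libraries were made from low RNA input by cDNA amplification, and no molecular identifiers are named, so counting error is a lower limit.

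Here, genes averaging at least 10 counts were tested with DESeq2 1.42.0 (Wald test, two-sided, on genotype alone). The alternatives were edgeR 4.0.16, limma 3.58.1 and sva 3.50.0, all in R 4.3.3. DESeq2, edgeR and limma were tried on simulated data first. An earlier simulation from these data had found more unchanged genes among DESeq2 calls, which is why edgeR was set beside it. The p-values measure the spread between libraries, whose titles in the labels each carry a replicate number. Whether they are separate animals was not resolved. Promoter windows came from GENCODE M39, where Ddx58 was matched as Rigi by its position and strand. Members named in the text were those called or with the smallest p (up to 10), a fixed set of representatives, the 6 most variable, and the 6 highest and 4 lowest by median correlation. Ifit3b, Ifi27l2a, Ifi35, Ifi206, Gbp4, Gbp6, Gbp8 and Phf11b were named after their values were seen, for their level, sequence or length. The members, lists and rules were chosen with earlier results of these data known. Pearson correlations used log2(normalized count + 1), group means removed. In the annotation, 12 members share over 20% of their 50-base stretches with other genes and 9 have over 5% of exon bases overlapped. Some items are not reported here.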

Additional observations from a re-analysis of the deposited data

Results flagged for a closer look

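Within a group, 9 sets of values held 1 library far from the rest, judged by the gap to its nearest neighbour over the range of the group, with 88 sets examined, of which chance alone flags about 1 in 20. R26-TIR1(F74G) replicate 9 was far above the other 5 libraries of its group for Ifi204 (402 normalized counts against 13.4 to 68.8), Ifitm2 (409.9 against 72.1 to 122) and Ifitm1 (38.9 against 0 to 10.2).

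R26-TIR1(F74G) replicate 7 was far above for 4 members, Oas3 (1729.5 against 579 to 860.4), Gbp9 (15162 against 8034 to 10414), Slfn5 (6150.5 against 3032 to 3959) and Parp14 (7495 against 2630.1 to 3549). The same library had the highest score, 0.55, on the main component of all tested genes.

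R26-TIR1(F74G) replicate 8 was far below for Mx1 (265 against 427 to 482). R26-WT replicate 4 was far above for Igtp (46581 against 32465 to 33924). The causes were not tested.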

How the results depend on the processing

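The number of called members was 1 with DESeq2, TMM factors or no low-count filter, 0 with edgeR, 0 with limma voom and quality weights (4 at an unadjusted p under 0.05), and 2 with either 1 surrogate variable or the length trend removed. It was 0 to 1 with each library left out in turn, and 0 only without R26-TIR1(F74G) replicate 6, where DESeq2 gave Ifi204 no adjusted p. Ifi204 missed the threshold with edgeR (log2 fold change 4.06, adjusted p 0.179) and limma (2.90, adjusted p 0.439), and ranged from 2.70 to 4.45 over the 9 DESeq2 fits without 1 library that gave it a p (adjusted p 0.000283 to 0.0347). The median log2 fold change of the members ranged from −0.02 to 0.09 with a library left out and was −0.02 with limma. The median pairwise r was 0.64 with the first component of all genes removed and 0.33 to 0.45 with a library left out, and the ISRE share was 38.2% in the 150-base window. Of 41 named members under 16 alternatives each, 22 never changed sign, and no value that changed sign was past the threshold. Signs changed with limma for Ifit1 (−0.066), Ifi47 (−0.019), Irf7 (−0.0034), Xaf1 (−0.10) and Gbp2 (−0.066), with 1 surrogate variable for Ifitm3 (0.019), Bst2 (0.090), Trim30a (−0.0090), Gbp9 (−0.021), Slfn5 (−0.015) and Parp14 (−0.027), and with the length trend removed for Bst2 (0.046), Xaf1 (−0.0047) and Trim30a (−0.0042). With libraries left out, the log2 fold changes that crossed 0 ranged as follows, for Ifit1 −0.056 to 0.12, Ifit2 −0.055 to 0.23, Ifit3 −0.20 to 0.061, Ifi47 −0.030 to 0.17, Ifi203 −0.099 to 0.036, Ifitm3 −0.30 to 0.076, Oasl2 −0.0014 to 0.22, Irf1 −0.12 to 0.043, Irf9 −0.056 to 0.019, Bst2 −0.11 to 0.11, Xaf1 −0.11 to 0.10, Trim30a −0.070 to 0.097, Ddx58 −0.0043 to 0.35, Gbp2 −0.10 to 0.067, Gbp9 −0.11 to 0.34, Igtp −0.20 to 0.031, Slfn5 −0.057 to 0.23 and Parp14 −0.14 to 0.51. The causes were not tested. No paired analysis was possible because no replicate number occurs in both genotypes. Small counts limit Ifi204 and Ifitm1, and 4 R26-WT libraries limit every comparison.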
